A study of Mus musculus with 112 samples.

Results

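The genes described here are those of the pyruvate dehydrogenase complex (Pdha1, Pdhb, Dlat, Dld and Pdhx), of its 4 inhibiting kinases (Pdk1, Pdk2, Pdk3 and Pdk4) and of pyruvate carboxylase (Pcx), measured in epididymal white adipose tissue (WAT) of mice on calorie restriction (CR) or a control diet. They were chosen by symbol, and a probe set was used only if it carried no other gene's symbol. All 10 were found, each through 1 probe set, among the 19938 genes measured.

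The pyruvate dehydrogenase complex sits in the mitochondrial matrix and turns pyruvate into acetyl-CoA, the step that commits carbon from glucose to oxidation or, in fat, to fatty acid synthesis by way of citrate. Pdha1 and Pdhb encode the alpha and beta chains of its first enzyme, Dlat the acetyltransferase core, Dld the lipoamide dehydrogenase that it shares with other 2-oxo acid dehydrogenases, and Pdhx the protein that tethers Dld to the core. The kinases phosphorylate the Pdha1 protein and switch the complex off. Pdk4 is known as the kinase that fasting, fatty acids and glucocorticoids raise, and Pdk1 as a target of the hypoxia factor. Pyruvate carboxylase takes pyruvate the other way, to oxaloacetate, which condenses with acetyl-CoA to form citrate.

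The study placed male mice of 7 strains (129S1/SvImJ, BALB/cJ, C57BL/6J, C3H/HeJ, CBA/J, DBA/2J and the hybrid B6C3F1/J) on a control diet or CR from 8 weeks of age and took the fat at 22 weeks, with 8 mice per strain and diet and 1 mouse per array (112 arrays). The labels spell 2 of these names Balbc/J and C57BL6/J. Before the diets began, every mouse was given 84 kcal per week. All mice were housed singly and fasted overnight before they were killed, so every level is that of a fasted mouse. The hybrid B6C3F1/J, CBA/J, C3H/HeJ and DBA/2J shared 1 pair of rations. The CR mice of 129S1/SvImJ and C57BL/6J were cut further during the study, and BALB/cJ received more food on both diets, its CR ration being the control ration of the other strains. Strain and amount of food therefore cannot be told apart where strains on different rations are compared, as in BALB/cJ against the others.

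Values are log2 signals, so a difference of 1 is a doubling of the signal. Signals of different genes come from different probes and are not set against each other as amounts. In bulk tissue, fewer cells of a type and less RNA per cell cannot be told apart. Arrays correlated with each other between 0.89 and 1.00, and their medians lay between 6.72 and 6.86. On markers of the epididymis, the tissue that this fat pad borders, 13 arrays lay over 1 log2 unit above the median of all arrays. Of these, 9 were of CR mice (C57BL/6J, CBA/J and DBA/2J) and 4 of control mice (DBA/2J). C57BL/6J CR mouse 2 (mean marker signal 12.53) and CBA/J CR mouse 5 (12.40) lay furthest out. Below that cut, C57BL/6J CR mice 4, 6, 7 and 8 (6.20 to 6.45) still lay above all controls of their strain (5.23 to 5.64). Leaving out the 13 arrays therefore does not even out these markers between the diets in C57BL/6J. In BALB/cJ, control mouse 3 had a mean complex signal of 10.80 against 8.87 to 9.35 in the other 7 controls, inside the range of the CR mice, while CR mice 4 (9.24) and 6 (9.02) lay inside the range of those 7 controls. On markers of testis germ cells, DBA/2J CR mice 2, 4, 5 and 8 (6.59 to 7.84) were the only arrays over 1 log2 unit above the median of all arrays. The libraries were used as labelled, and values without these mice are given beside the results that they move most.

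The promoters of 4 of these genes are shown because their transcripts went different ways: Pdhb and Pdk1 rose on CR, and Pdk2 and Pdk4 fell. Each is the stretch of 250 bases before a start listed for the gene in RefSeq (GRCm38.p6), read 5′ to 3′ along the gene. The windows are chr14:8172993-8173242 (minus strand) for Pdhb, chr2:71872974-71873223 (plus strand) for Pdk1, chr11:95041372-95041621 (minus strand) for Pdk2 and chr6:5496279-5496528 (minus strand) for Pdk4. The Pdhb window lies inside the gene's full span (chr14:8165991-8173303), so part of the gene lies before it. The Pdk1 window runs a few bases past the start of that gene's span (71873215). For Pdk1 and Pdk2, which have 2 listed starts, the first listed is given. Capitals mark the letters CCAAT and GGGCGG on either strand, which read ATTGG and CCGCCC on the other strand.
Pdhb: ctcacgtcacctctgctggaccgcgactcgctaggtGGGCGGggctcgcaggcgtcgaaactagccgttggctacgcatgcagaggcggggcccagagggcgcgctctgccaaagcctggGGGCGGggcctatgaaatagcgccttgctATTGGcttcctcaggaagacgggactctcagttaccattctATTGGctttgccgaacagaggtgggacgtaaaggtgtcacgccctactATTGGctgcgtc
Pdk1: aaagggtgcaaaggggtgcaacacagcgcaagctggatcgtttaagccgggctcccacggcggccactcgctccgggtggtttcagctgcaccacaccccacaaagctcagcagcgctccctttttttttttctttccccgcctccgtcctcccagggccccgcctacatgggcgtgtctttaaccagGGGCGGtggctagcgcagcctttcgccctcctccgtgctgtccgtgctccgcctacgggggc
Pdk2: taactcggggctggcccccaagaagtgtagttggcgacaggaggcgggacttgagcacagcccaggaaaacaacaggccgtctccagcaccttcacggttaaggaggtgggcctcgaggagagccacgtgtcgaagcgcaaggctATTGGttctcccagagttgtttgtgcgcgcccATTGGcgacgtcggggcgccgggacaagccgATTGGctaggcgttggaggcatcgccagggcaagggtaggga
Pdk4: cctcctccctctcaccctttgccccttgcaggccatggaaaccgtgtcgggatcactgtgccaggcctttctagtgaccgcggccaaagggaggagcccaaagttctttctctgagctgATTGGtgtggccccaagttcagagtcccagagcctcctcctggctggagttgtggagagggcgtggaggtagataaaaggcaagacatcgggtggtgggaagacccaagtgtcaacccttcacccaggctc
CCAAT, the letters of the CCAAT box, occurred 3 times in the Pdhb window, 3 times in that of Pdk2, once in that of Pdk4 and not in that of Pdk1. GGGCGG, the letters of the GC box, occurred 2 times in the Pdhb window and once in that of Pdk1. Over the first listed start of the 10 genes, 6 held CCAAT and 6 held GGGCGG, against 33.8% and 32.7% of the 32851 promoters in the table. CACGTG, the letters of an E-box, lay before Pdk2 and Pcx (6.02% of all promoters). AGGTCA, a core that many nuclear receptors bind, GTAAACA, a forkhead core, and TATAAA were in none of the 10 windows and in 14%, 3.17% and 12.4% of all promoters. These are matches of letters in a short window and say nothing of binding elsewhere.

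The 5 genes of the complex rose together on CR. Averaged over the 7 strains, the log2 change from control to CR was 1.10 for Pdhb (SE 0.08, adjusted p = 1.3e-23), 1.03 for Dlat (SE 0.07, adjusted p = 1.78e-23), 0.83 for Pdha1 (SE 0.06, adjusted p = 2.06e-22), 0.82 for Pdhx (SE 0.07, adjusted p = 2.56e-20) and 0.65 for Dld (SE 0.05, adjusted p = 8.98e-20), by limma with Benjamini-Hochberg adjustment over all 19938 genes. Pdhb signal was thus 114% higher and Dld signal 57% higher. Each of the 5 was higher in CR than in control in all 7 strains. Of the 10 genes, 7 rose and 2 fell across strains at an adjusted p under 0.05, where 21.9% of all genes rose and 22% fell. The median change of the complex genes was 0.83 and that of the kinases -0.12, beside 0.01 for all genes.

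**Figure D1:**
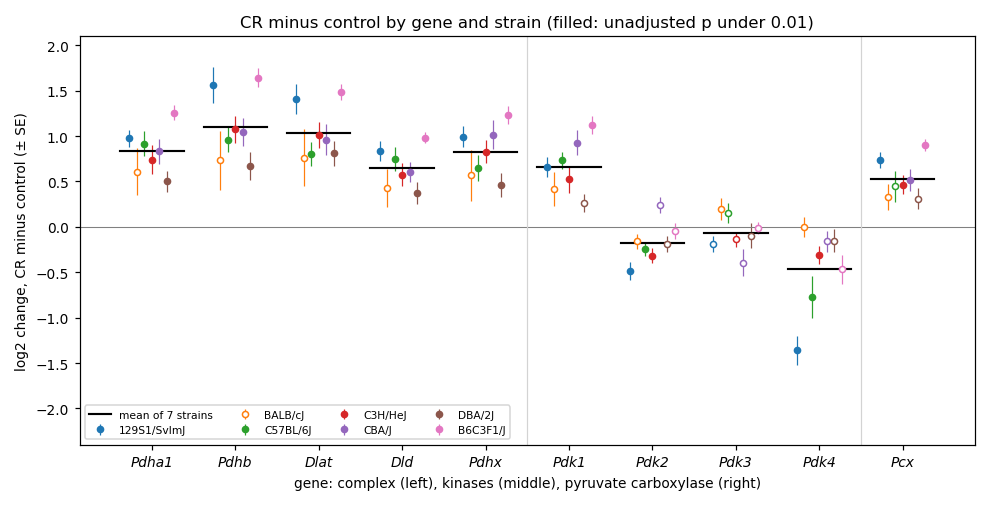
Log2 change from control to CR with its SE for each gene (horizontal axis) in each of 7 strains (coloured points, filled where the unadjusted p was under 0.01), with a black bar at the mean of the strains. The 5 complex genes, Pdk1 and Pcx lie above 0 in every strain, and Pdk4 ranges from -1.36 in 129S1/SvImJ to 0.00 in BALB/cJ.

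Pdhb, the beta chain of the first enzyme, had the largest mean change over the strains of the complex genes, though Dlat changed more in DBA/2J (0.81 against 0.67) and in BALB/cJ (0.76 against 0.73). In B6C3F1/J its control mice ran from 7.50 (median 7.78) to 7.93 and its CR mice from 8.88 (median 9.41) to 9.92, a change of 1.65 (SE 0.11, adjusted p = 6.65e-09). In 129S1/SvImJ the controls ran from 7.24 (median 7.63) to 7.96 and the CR mice from 8.05 (median 9.31) to 9.73, a change of 1.57 (SE 0.20, adjusted p = 1e-05). In neither strain did a CR mouse reach down to a control. The change was 1.07 in C3H/HeJ, 1.04 in CBA/J, 0.96 in C57BL/6J and 0.67 in DBA/2J, in each of which the groups overlapped. In DBA/2J its adjusted p was 0.0498.

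Dlat, the core of the complex, ranged from 1.48 in B6C3F1/J (controls 9.42 to 9.60 with median 9.503, CR mice 10.65 to 11.32 with median 10.98) to 0.76 in BALB/cJ. Pdha1, the chain that carries the phosphorylation sites, changed by 1.26 in B6C3F1/J (controls 9.83 to 10.07 with median 9.91, CR mice 10.93 to 11.57 with median 11.15) and by 0.50 in DBA/2J. Pdhx ranged from 0.46 in DBA/2J to 1.23 in B6C3F1/J and Dld from 0.38 to 0.98 in the same 2 strains. All 5 passed an unadjusted p under 0.01, the threshold of the study's methods, in 6 of 7 strains, BALB/cJ being the exception. After adjustment within each strain Pdhb and Dlat passed in 6 strains and Pdha1, Dld and Pdhx in 5, since these 3 did not pass in DBA/2J (adjusted p 0.0512, 0.143 and 0.0994).

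The kinases did not move as a group. Pdk1, which is known as a hypoxia-induced kinase, rose with the complex it inhibits: its log2 change over the strains was 0.66 (SE 0.05, adjusted p = 1.02e-20), higher in all 7 strains and past the strain threshold in 5. In B6C3F1/J its controls ran from 7.71 (median 7.95) to 8.19 and its CR mice from 8.76 (median 9.002) to 9.41. In C57BL/6J the controls ran from 8.02 (median 8.25) to 8.46 and the CR mice from 8.67 (median 8.97) to 9.31. In CBA/J the controls ran from 8.13 (median 8.84) to 9.14 and the CR mice from 9.17 (median 9.75) to 9.97. In these 3 strains no CR mouse overlapped a control, and the changes were 1.12, 0.73 and 0.93. The strains that did not pass the threshold were DBA/2J (0.26, adjusted p = 0.199) and BALB/cJ (0.42, adjusted p = 0.653).

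Pdk4, the fasting-responsive kinase, fell by 0.46 over the strains (SE 0.06, adjusted p = 1.52e-10), a change in signal of -27.3%. In 129S1/SvImJ the controls ran from 11.73 (median 11.93) to 12.22 and the CR mice from 9.97 (median 10.63) to 11.33, a change of -1.36 (SE 0.16, adjusted p = 4.55e-06). Every CR mouse of that strain lay below every control. In C57BL/6J the controls ran from 11.05 (median 11.45) to 11.86 and the CR mice from 9.19 (median 10.97) to 11.11, a change of -0.78 (SE 0.23, adjusted p = 0.0276). The lowest of these is CR mouse 2, the array with the strongest epididymis markers. Without it the change was -0.56 (adjusted p = 0.00421), and without all arrays apart on those markers -0.45 (adjusted p = 0.019).

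In the other strains the Pdk4 change was smaller. It was -0.31 in C3H/HeJ (SE 0.10, adjusted p = 0.0431) and -0.47 in B6C3F1/J, whose unadjusted p of 0.0104 just misses 0.01 while its adjusted p of 0.0335 passes. CBA/J (-0.16, adjusted p = 0.354) and DBA/2J (-0.15, adjusted p = 0.612) did not pass. In BALB/cJ the controls ran from 11.50 (median 11.81) to 12.07 and the CR mice from 11.34 (median 11.87) to 12.26, a change of 0.00 (SE 0.11).

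Pdk2, a kinase that many tissues express, fell by 0.17 over the strains (SE 0.03, adjusted p = 5.75e-06). It passed the strain threshold as lower in 129S1/SvImJ (-0.49, adjusted p = 0.00107), C3H/HeJ (-0.32, adjusted p = 0.0127) and C57BL/6J (-0.25, adjusted p = 0.034). In 129S1/SvImJ the controls ran from 11.26 (median 11.43) to 11.80 and the CR mice from 10.70 (median 11.04) to 11.30, so the groups just overlapped. CBA/J went the other way, from a control range of 10.38 (median 10.88) to 11.13 to a CR range of 10.90 (median 11.08) to 11.35, a change of 0.24 that did not pass (adjusted p = 0.07). Without CBA/J control mouse 8 it was 0.28 and passed (adjusted p = 0.0365). The C57BL/6J call was lost without control mouse 1, 3 or 7 (unadjusted p of 0.0115, 0.0101 and 0.0115) and without the arrays apart on epididymis markers (-0.19, unadjusted p 0.0233).

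Pdk3 changed by -0.07 over the strains (SE 0.04, adjusted p = 0.215) and passed the threshold in no strain. Its strain changes ran from -0.40 in CBA/J (adjusted p = 0.0655) to 0.20 in BALB/cJ (adjusted p = 0.694). In BALB/cJ control mice 1 to 4 lay at 8.03 to 8.20 and control mice 5 to 8 at 7.43 to 7.53. The BALB/cJ CR mice ran from 7.80 to 8.23. Without CBA/J CR mouse 5, an array apart on epididymis markers, the CBA/J change was -0.51 (adjusted p = 0.00174), so that 1 mouse decides this call.

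**Figure D2:**
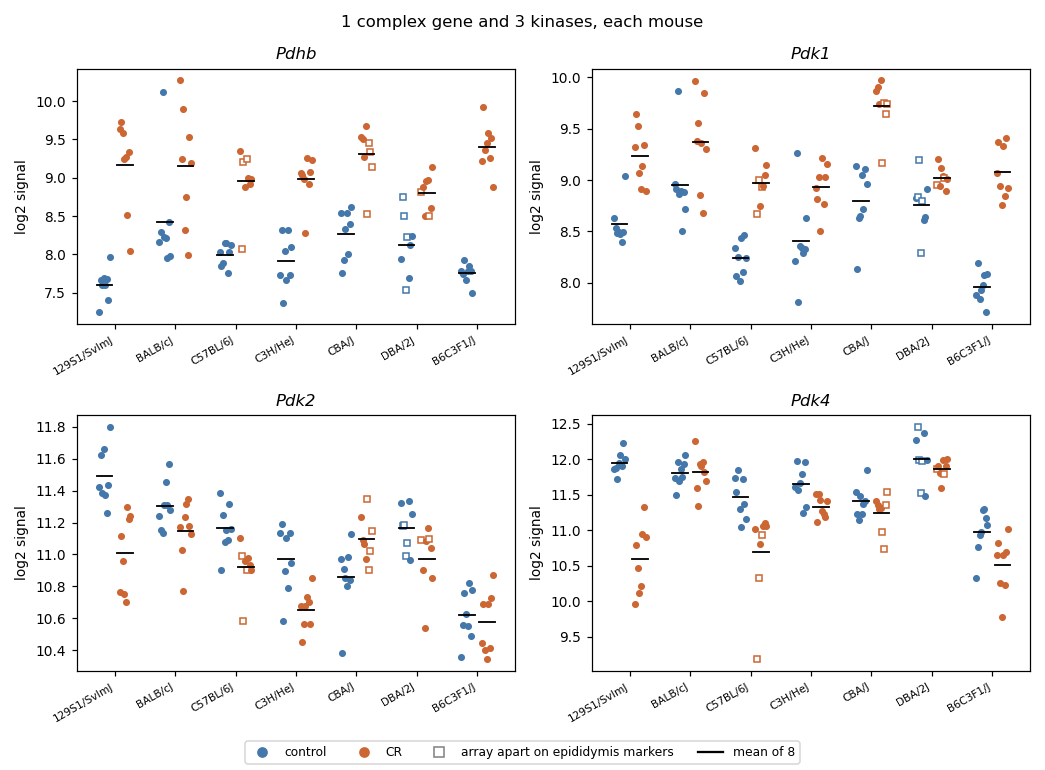
Log2 signal of each mouse for Pdhb, Pdk1, Pdk2 and Pdk4 (vertical axes) in each strain (horizontal axes), controls in blue and CR mice in orange, with black bars at the means of 8 mice and open squares for arrays apart on epididymis markers. Pdhb and Pdk1 sit higher in CR, Pdk4 sits lower in 129S1/SvImJ and C57BL/6J, and BALB/cJ control mouse 3 stands among the CR mice for Pdhb and Pdk1.

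For Pcx the signal was 44.2% higher on CR, a mean log2 change of 0.53 (SE 0.05, adjusted p = 1.02e-17), with the same direction in all 7 strains. In B6C3F1/J the controls ran from 11.38 (median 11.48) to 11.68 and the CR mice from 12.21 (median 12.43) to 12.62, a change of 0.90 (SE 0.06, adjusted p = 1.41e-08). In 129S1/SvImJ the change was 0.74 (SE 0.09, adjusted p = 4.72e-06). The groups did not overlap in these 2 strains. Pcx also passed in CBA/J (0.51) and C3H/HeJ (0.46). In C57BL/6J the change of 0.45 did not pass (adjusted p = 0.0814), and without CR mouse 2, the array with the strongest epididymis markers, it was 0.62 (adjusted p = 6.03e-06).

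By strain, at an unadjusted p under 0.01, 7 of the 10 genes were higher and 2 lower in 129S1/SvImJ (against 14.4% and 14.2% of all genes), 7 and 2 in C3H/HeJ (9.25% and 7.43%), and 6 and 2 in C57BL/6J (9.8% and 7.82%). In CBA/J 7 were higher and 0 lower (8.52% and 12.3%), in B6C3F1/J 7 and 0 (16.5% and 14.4%), in DBA/2J 5 and 0 (3.15% and 2.88%), and in BALB/cJ 0 and 0 (0.622% and 0.958%). At an unadjusted p under 0.05 the limma counts of lower genes were 1 in CBA/J, 1 in DBA/2J and 1 in B6C3F1/J. Groups without overlap between CR and control numbered 7 of the 10 genes in 129S1/SvImJ (7.73% of all genes), 7 in B6C3F1/J (12.6%), 1 in C57BL/6J (4.49%), 1 in CBA/J (7.09%), 0 in C3H/HeJ (2.34%), 0 in DBA/2J (0.206%) and 0 in BALB/cJ (0.00502%). The 5 genes called in DBA/2J were those of the complex, and Dld was no longer called there without any 1 of 11 of the 16 mice, its change lying between 0.33 and 0.48 over all 16 omissions. Without the 4 DBA/2J CR mice apart on germ cell markers, which leaves 4 CR mice, 1 of the 10 genes had an unadjusted p under 0.01, Dlat (0.61, adjusted p = 0.887), and the other complex genes changed by 0.26 to 0.48.

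In BALB/cJ the changes pointed as in the other strains for the complex (0.43 to 0.76), Pdk1 and Pcx but none passed by limma at an unadjusted p under 0.01 (5 were under 0.05, and the methods' t-test also called 0). The spread was wide: Pdhb ran from 7.96 (median 8.22) to 10.12 in controls and from 7.99 (median 9.22) to 10.27 in CR mice. The highest control is mouse 3, whose signals for Acly (13.00), Me1 (13.03) and Mpc1 (12.73) also lay above the other controls (9.22 to 10.21, 10.82 to 11.62 and 10.95 to 11.68). Its brown adipocyte markers (mean 9.15) lay above the other controls (7.02 to 7.45), and its adipocyte (12.47 against 12.51 to 12.67) and mesothelium markers (8.12 against 8.36 to 9.10) below them, while its epididymis markers (5.30) lay inside their range. Without that mouse 7 of the 10 genes passed at an unadjusted p under 0.01, the complex, Pdk1 and Pcx, with changes of 0.58 to 1.00 in the complex. None of the 7 passed after adjustment (adjusted p 0.0728 to 0.106). Without CR mouse 6 the count was 5, and without CR mouse 4 it was 1. These mice were left out after their values were seen, and leaving out a high control can only widen the difference.

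The comparison of the complex with the kinases was made per mouse, as the mean log2 signal of the 5 complex genes minus that of the 4 kinases. CR moved it upwards by 0.90 averaged over the strains. The difference between the diet means was 1.5 in 129S1/SvImJ, where controls ran from -1.49 to -1.14 and CR mice from -0.44 to 0.77. It was 1.17 in B6C3F1/J (controls -0.94 to -0.52, CR mice -0.13 to 0.64) and 0.85 in C57BL/6J (controls -1.10 to -0.67, CR mice -0.54 to 0.39). In these 3 strains the diets did not overlap. In C3H/HeJ (0.91), CBA/J (0.74) and DBA/2J (0.61) 7 of 8 CR mice lay above the highest control, and in BALB/cJ (0.50) 1 of 8 did. Without BALB/cJ control mouse 3 the BALB/cJ difference was 0.67, and 6 of 8 CR mice lay above the highest control. The score holds Pdk1, which rose, among the kinases, and in 129S1/SvImJ the fall of Pdk4 adds to it. Over the strains the kinase changes (0.66 for Pdk1, -0.17 for Pdk2, -0.07 for Pdk3 and -0.46 for Pdk4) nearly cancel in their mean. The averaged difference therefore mostly shows the rise of the complex. With medians over the genes in place of means the averaged difference was 0.53. A score over chosen genes has no p.

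**Figure D3:**
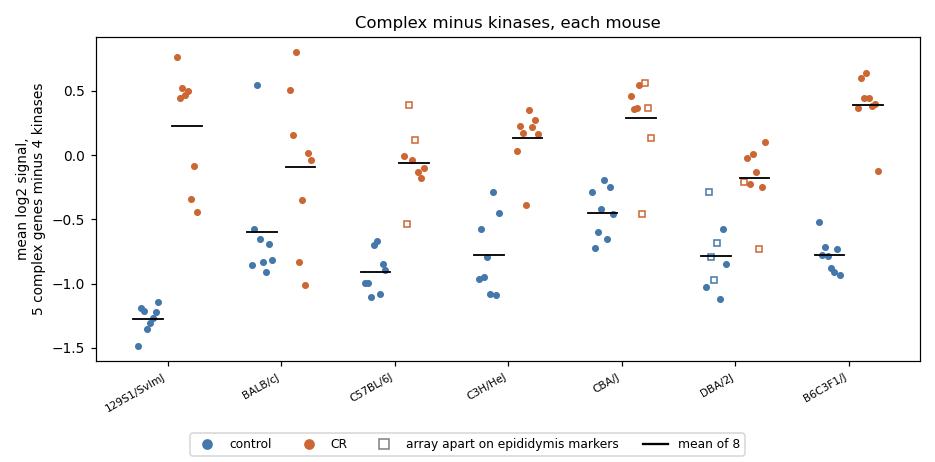
Mean log2 signal of the 5 complex genes minus that of the 4 kinases (vertical axis) for each of the 112 mice, by strain (horizontal axis), controls in blue, CR mice in orange, black bars at the means of 8 mice, open squares for arrays apart on epididymis markers. The diets separate fully in 129S1/SvImJ, C57BL/6J and B6C3F1/J, and BALB/cJ control mouse 3 (0.55) lies among the CR mice.

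Whether the CR effect differed between strains was tested by an F-test on the 7 differences. It passed for 5 of the 10 genes, against 19% of all genes: Pdk4 (adjusted p = 9.96e-06), Pdk2 (adjusted p = 0.00022), Pdk1 (adjusted p = 0.00562), Pdhb (adjusted p = 0.0287) and Pdk3 (adjusted p = 0.049). The 4 kinases are thus among the 5. Pcx (adjusted p = 0.054), Pdhx (0.0929), Pdha1 (0.116), Dld (0.116) and Dlat (0.12) did not pass, which does not show that their responses are equal. The call for Pdk3 was lost under median centring, with the replicate block and without C57BL/6J CR mouse 2 (adjusted p = 0.0566), and that for Pdhb was lost without the 13 arrays apart. Pcx passed without those 13 arrays, without C57BL/6J CR mouse 2 (adjusted p = 0.0121) and without CBA/J CR mouse 5 (adjusted p = 0.0406).

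By the paper, BALB/cJ was the only strain whose body weight did not fall significantly on CR. This strain, which was also fed more, was set against the mean of the other 6. The difference in log2 change was 0.54 for Pdk4 (SE 0.17, adjusted p = 0.0656) and 0.32 for Pdk3 (SE 0.13, adjusted p = 0.197), and for the 5 complex genes it lay between -0.43 for Pdhb and -0.26 for Dld. Without BALB/cJ control mouse 3 those 5 lay between -0.18 for Pdhb and -0.08 for Pdha1, and Pdk4 was at 0.56 (adjusted p = 0.0677). None of the 10 genes passed in limma, where 3.25% of all genes did, and Pdk3 and Pdk4 were the 2 with an unadjusted p under 0.05. Pdk4 passed without C57BL/6J CR mouse 2 (0.50, adjusted p = 0.037), and without the 13 arrays apart both Pdk4 (0.47, adjusted p = 0.0471) and Pdk3 passed.

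On the control diet all 10 genes differed between strains by an F-test, as did 56.6% of all genes. Pdk4 was highest in DBA/2J (12.01 ± 0.36, SD, n = 8), followed by 129S1/SvImJ (11.95 ± 0.15), BALB/cJ (11.81 ± 0.18), C3H/HeJ (11.65 ± 0.26), C57BL/6J (11.47 ± 0.29), CBA/J (11.41 ± 0.22) and B6C3F1/J (10.98 ± 0.32). Neighbours in that order lay within 1 SD of each other except CBA/J and B6C3F1/J, which were 0.42 apart. Pdk1 was highest in BALB/cJ (8.95 ± 0.40, or 8.82 ± 0.16 without mouse 3) and lowest in B6C3F1/J (7.96 ± 0.16), the latter 0.28 below C57BL/6J, its nearest neighbour. Pdk2 was highest in 129S1/SvImJ (11.49 ± 0.18) and lowest in B6C3F1/J (10.62 ± 0.16). Pdk3 ran from 8.61 ± 0.23 in 129S1/SvImJ to 7.79 ± 0.34 in BALB/cJ, where mice 5 to 8 (7.43 to 7.53) lay below mice 1 to 4 (8.03 to 8.20). Without BALB/cJ control mouse 3 the BALB/cJ control level of Pdhb was 8.18 ± 0.17 in place of 8.42 ± 0.70, and all 10 genes still passed, Pdhx only just (adjusted p = 0.0499). The hybrid B6C3F1/J thus had the lowest control level of Pdha1 (9.93 ± 0.09), Dlat (9.51 ± 0.06), Pdhx (7.30 ± 0.11), Pdk1, Pdk2, Pdk4 and Pcx (11.52 ± 0.11), and its CR changes were the largest of the 7 strains for the 5 complex genes, Pdk1 and Pcx. Level and change share the same control mice, so no relation between them was computed.

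Across mice, the likeness of the genes was described by Pearson's r over the 112 arrays, which share strain and diet. With each array centred on its strain mean, the 10 pairs of complex genes had r from 0.93 to 0.98, Pdk1 with the complex 0.89 to 0.94, and Pcx with the complex 0.90 to 0.95. Pdk4 with the complex had r from -0.46 to -0.39 and Pdk2 from -0.42 to -0.31, while Pdk2 and Pdk4 had 0.63 with each other. Centred on the group mean, which takes out diet, the complex kept r from 0.85 to 0.94 and Pdk1 with the complex 0.74 to 0.86. Pdk4 with the complex then lay between 0.05 and 0.19 and Pdk2 between -0.18 and -0.01. Pooled over the 14 groups, mice above their group mean in complex transcript thus tended to be above it in Pdk1. The negative r with Pdk4 was not seen in the pooled group-centred values. By ranks the group-centred correlation was 0.66 to 0.78 for Pdk1 and -0.01 to 0.07 for Pdk4. The BALB/cJ groups had the widest Pdhb spread (SD 0.70 in controls, 0.77 on CR), and r was not computed without them or within single groups. Over the 99 arrays not apart on epididymis markers the group-centred values were 0.77 to 0.89 for Pdk1 and -0.10 to 0.01 for Pdk4.

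**Figure D4:**
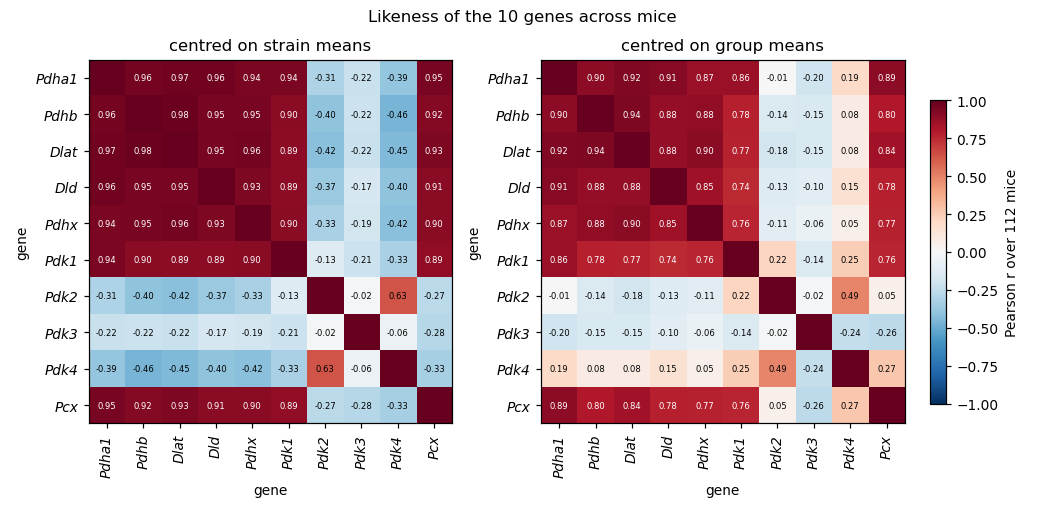
Pearson r between the 10 genes (both axes) over 112 mice, after centring on strain means (left) or on the means of strain and diet (right), from blue at -1 to red at 1. The complex genes, Pdk1 and Pcx form 1 block of high values on both sides, and Pdk4 with them is below 0 on the left and between 0.05 and 0.27 on the right.

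Of all 19938 genes, those most like Pdha1 over the strain-centred arrays were Gpd2, the mitochondrial glycerol phosphate dehydrogenase (r = 0.98), Pygl, a glycogen phosphorylase (0.98), and Gbe1, the glycogen branching enzyme (0.98). Centred on groups they were Gpd2 (0.95), Pygl (0.95) and Mpc1, a subunit of the carrier that brings pyruvate into the mitochondrion (0.95). For Pcx they were Taldo1, the transaldolase of the pentose phosphate pathway (0.96), Pdha1 (0.95) and Pygl (0.95), and by groups Taldo1 (0.91), Tmem120b (0.90) and Uck1 (0.90). For Pdk4 they were Irak2 (0.79), Txnip (0.78) and Tmem140 (0.77), and by groups Angptl4, the fasting-induced inhibitor of lipoprotein lipase (0.69), Txnip (0.68) and Peli2 (0.68). For Pdk2 they were Mapk1ip1 (0.79), Pkp4 (0.73) and Gstt2 (0.72), and by groups Grik5 (0.69), Grhpr (0.69) and Fam13a (0.68). The values are lower for the 2 kinases than for Pdha1 and Pcx. These likeness lists were made only over all 112 arrays, the 13 apart on epididymis markers among them.

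The enzymes that undo the kinases' work were split. Of 3 phosphatase genes, Pdp2, a catalytic subunit, rose by 0.34 (adjusted p = 7.61e-15), and Pdp1, the other catalytic subunit, fell by 0.25 (adjusted p = 2.63e-15). Pdpr, the regulatory subunit, rose by 0.23. Upstream, Mpc1 rose by 0.70 (adjusted p = 4.4e-19). The 3 genes that make and attach lipoic acid, the cofactor of Dlat, all rose, led by Lias (0.29) and Lipt1 (0.15). For all lists, each count of 0 was also 0 at an unadjusted p under 0.05 by limma. All list counts, here and below, stand beside 21.9% of all genes that rose and 22% that fell. Of 7 genes of the other 2-oxo acid dehydrogenases and their kinase and phosphatase, 5 rose and 0 fell, led by Dlst (0.33) and Bckdha (0.30), with a median change of 0.10.

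Downstream, the 3 genes of citrate formation and export rose, among them Acly, which splits citrate to acetyl-CoA (2.21), and the citrate carrier Slc25a1 (0.99). Of 9 genes of oxaloacetate and malate handling, where the product of Pcx goes, 5 rose and 1 fell, with Me1, the malic enzyme, at 1.21 and the dicarboxylate carrier Slc25a10 at 1.03. Of 6 genes of pyruvate and lactate turnover, 3 rose and 1 fell. Pkm, the pyruvate kinase, rose by 0.80 and Slc16a7, a monocarboxylate transporter, fell by 0.35. The median changes of these lists were 0.99, 0.29 and 0.13.

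Around Pdk4, the 7 measured genes that fasting and PPAR factors are known to induce held 0 that rose and 5 that fell, led by Cpt1a, the carnitine palmitoyltransferase (-0.43), and Ucp3 (-0.20), with a median of -0.19. The count of 0 compares with 21.9% of all genes and that of 5 with 22%. Ucp3 did not fall in every strain: its changes ran from -0.72 in C57BL/6J to 0.15 in CBA/J. Of 8 transcription factors and coactivators known to act on Pdk4, 4 rose and 1 fell, led by Ppargc1a (0.38) and Esrra (0.25). Of the 8 genes of the hypoxia factor and its targets, chosen beside Pdk1, 1 rose and 4 fell, against 21.9% and 22% of all genes. Egln3 rose by 0.71, with strain changes from 0.36 in DBA/2J to 1.21 in B6C3F1/J. Bnip3 was at -0.35 and the median at -0.08. The part of the hypoxia factor in the Pdk1 change was not tested.

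Cell type markers moved too, beside 21.9% of all genes that rose and 22% that fell. All 10 macrophage markers fell (median -0.87), with a mean signal of 8.85 to 10.46 over the control groups and 8.39 to 9.03 over the CR groups. Of 7 adipocyte markers 0 rose and 3 fell (median -0.06), with group means of 12.61 to 12.84 in controls and 12.43 to 12.70 on CR. Brown adipocyte markers rose in 4 of 5 (median 0.71; 6.73 to 8.19 in controls, 7.27 to 8.61 on CR), Cidea by 1.03 and Ucp1 by 0.61. Mesothelium markers had 1 that rose and 1 that fell of 5 (8.29 to 8.67, then 7.82 to 8.81), and muscle markers 0 and 1 of 10 (6.33 to 6.46, then 6.26 to 6.40). Epididymis markers rose in 3 of 10 (5.31 to 6.71, then 5.32 to 7.25). Gpx5, the largest of these changes, was at 3.94 in C57BL/6J and 2.80 in CBA/J, against -0.41 to 0.29 in the other strains. Testis germ cell markers rose in 4 of 7 (5.49 to 5.65, then 5.47 to 6.48). The highest mean is that of DBA/2J CR, where Prm1, a protamine of sperm, changed by 1.71, against -0.09 to 0.37 in the other strains. Pdha2, the testis form of Pdha1 and a germ cell marker, changed by 0.05 over the strains (adjusted p = 0.257). Its strain changes ran from -0.13 in C57BL/6J to 0.22 in DBA/2J, at a low mean signal (4.11). The part of these cells in the changes above was not tested. Without the 13 arrays apart on epididymis markers the across-strain changes were 0.70 to 1.16 for the complex genes, 0.70 for Pdk1, -0.40 for Pdk4, -0.18 for Pdk2 and 0.57 for Pcx.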

How the data were processed

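Epididymal fat of 112 male mice was hybridised to Affymetrix Gene 1.0 ST arrays, 1 mouse per array. The authors made the log2 signals with gene-level RMA-Sketch in Expression Console and deposited them per probe set. RMA subtracts background and brings arrays to 1 distribution, which can compress large changes. The arrays normalized together and the genome build are not given in the sources used here. Of 35556 probe sets, 21789 carried 1 symbol in the platform annotation (1621 several, 12146 not named), giving 19938 genes, with the brightest probe set per gene. Groups came from the labels.

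limma 3.58.1 (R 4.3.3) was fitted to 14 group means for the across-strain change, the F-tests and BALB/cJ against the others (adjusted p under 0.05), and per strain to 16 arrays (unadjusted p under 0.01, as in the methods, with Benjamini-Hochberg adjusted p beside it). The scripts were tested on simulated data. Named genes are all members, the 2 largest called changes of each pathway list, and the 3 genes most like Pdk4, Pdk2, Pdha1 and Pcx; Ucp1, Cidea, Pdpr and Pdha2 were added for their roles, and Acly, Me1 and Mpc1 in single mice after their values were seen. Members and lists were chosen with earlier results of these data known. Mpc2, Cpt1b, Cfd, Crisp1 and Cst8 were not analysed here. The number of arrays limits the precision. Figures used matplotlib 3.10.9, pandas 2.3.3 and numpy 2.4.6 in Python 3.11.15. Promoters came from a RefSeq table of GRCm38.p6, which held all 10 members, 3 of them with 2 starts. Alternatives varied scaling, filter, probe set, weights, variance model, test, threshold and arrays.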

Additional observations from a re-analysis of the deposited data

Results flagged for a closer look

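In 140 groups of 8 mice (10 genes, 7 strains, 2 diets), 28 held a mouse whose gap to its nearest neighbour was past Dixon's critical value for 8 samples, where chance alone would flag about 7 of the 140. These flags are not independent, since most fall on a few mice. BALB/cJ control mouse 3 was high in Pdha1 (12.00, next 10.72), Pdhb (10.12, next 8.42), Dlat (11.73, next 10.03), Dld (10.79, next 9.88), Pdhx (9.38, next 7.98) and Pdk1 (9.87, next 8.96). C57BL/6J CR mouse 2 was low in Pdha1 (10.15), Pdhb (8.07), Dlat (9.47), Dld (8.96), Pdk4 (9.19) and Pcx (11.02), and its adipocyte markers (mean 11.49) also lay below those of the other 7 mice (12.55 to 12.71). CBA/J CR mouse 5 was low in Pdha1 (10.96), Pdhb (8.53), Dlat (10.58), Dld (9.60), Pdk1 (9.17) and Pcx (11.98). C3H/HeJ CR mouse 4 was low in Pdha1 (10.52), Pdhb (8.28) and Dlat (10.26), and 129S1/SvImJ control mouse 8 was high in Pdhx (7.78) and Pdk1 (9.04). Single values were DBA/2J control mouse 2 in Dld (10.24), DBA/2J control mouse 4 in Pcx (11.12), C57BL/6J CR mouse 3 in Pdk2 (10.58), and CBA/J control mouse 2 in Pdk2 (10.38) and Pcx (11.42).

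The CR effect differed between strains by the F-test for Pdk4 (adjusted p = 9.96e-06), Pdk2 (adjusted p = 0.00022), Pdk1 (adjusted p = 0.00562), Pdhb (adjusted p = 0.0287) and Pdk3 (adjusted p = 0.049).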

How the results depend on the processing

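Across strains 7 genes were higher under every alternative run for that count, and 2 were lower except with array weights and without BALB/cJ, where Pdk3 made it 3 (-0.09, adjusted p = 0.0334, and -0.11, adjusted p = 0.0397). The count of genes whose effect differed between strains was 5, 10 with array weights, and 4 to 6 otherwise. For BALB/cJ against the others it was 0, 1 with genes above the median signal only, 2 without the 13 arrays apart, and 0 to 1 without BALB/cJ control mouse 3, C57BL/6J CR mouse 2 or CBA/J CR mouse 5. The complex minus kinases difference was 0.90, and 0.53 with medians. Leaving out each mouse in turn, chosen after seeing the data, gave 0 to 7 calls in BALB/cJ, 7 to 9 in C57BL/6J, 7 to 8 in CBA/J and 4 to 6 in DBA/2J (5 with all mice, 1 without the 4 CR mice apart on testis germ cell markers); the mice that matter in BALB/cJ are control mouse 3 (7), CR mouse 6 (5) and CR mouse 4 (1). Over the 7 strains 39 gene and strain pairs were higher and 6 lower at an unadjusted p under 0.01, 36 and 7 at an adjusted p under 0.05, 38 and 5 by the methods' t-test (34 and 6 after adjustment), and 46 and 7 in 1 model of all arrays. With the replicate number as a block they were 46 and 4, and 6 genes differed between strains. The labels give CR and control mice a shared number and do not say what it stands for. Their deviations correlated between -0.36 and 0.55, over 0.1 in 18 of 56 pairs. Of 56 CR mice, 10 correlated best with the control of their own number. In C3H/HeJ the mean r was 0.22, with 5 of 8 pairs over 0.1 and 4 such best matches. In DBA/2J the mean r was -0.145, with 1 such pair and 0 best matches. Whether the number marks a batch was not tested. Median centring moved the share of higher calls over all genes from 49.8% to 57.5%.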
